A study of Mus musculus with 6 samples.

Results

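Nuclear receptors are transcription factors that bind DNA through a zinc-finger domain and, in many members, respond to a lipid-soluble ligand such as a steroid, an oxysterol or a bile acid. Systematic symbols begin with NR and give the subfamily, the group and the member. Genes named this way were taken from the deposited count table by symbol alone (letters N and r, a digit, a lower-case letter, a digit), which found 25 of its 23420 genes. They comprise subfamily Nr0 (2 genes, atypical receptors without the zinc-finger domain), Nr1 (8), Nr2 (7), Nr3 (2), Nr4 (3), Nr5 (2) and Nr6 (1). In the kidney the family is best known for the corticosteroid receptors of the distal nephron, the bile acid receptor of the proximal tubule and the COUP factors of the mesenchyme.

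RNA with poly(A) tails was sequenced from mouse fetal kidneys at embryonic day 18.5, in 3 Six2-high and 3 Six2-low libraries. The embryos came from wild-type females and males heterozygous for a Six2-GFP transgene, so both fractions were sorted from kidneys that carried the transgene. Its fluorescence marks the cap mesenchyme, the tissue of the nephron progenitors, and Six2-high cells are GFP-positive and Six2-low cells GFP-negative by a gate set on non-transgenic kidneys, after scatter gates against red blood cells. Each Six2-high library shares a preparation with 1 Six2-low library, by tags in its title that are read here as a date and an RNA kit. On this reading, preparation 1 has the first date and the TRI kit, and preparation 2 the second date and the Norgen kit. Preparation 3 has the second date and the TRI kit. Kidneys of transgenic embryos were pooled, and the sort was done in 3 experiments per the labels. Whether preparations 2 and 3 came from separate animals is not stated, so p-values measure the spread between these libraries, which may in part be technical.

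The sort held: the 8 cap mesenchyme markers were all higher in Six2-high, and their summed level was 2113 to 3328 CPM in Six2-high, against 185 to 229 CPM in Six2-low (CPM, counts scaled to a common library total, as described with the processing). Six2 itself was at 848.7, 1479 and 1344 CPM in Six2-high and 23.4, 11.2 and 11.1 CPM in Six2-low. Its log2 difference between fractions, with a prior count of 2, was smallest in preparation 1, at 5.18, against 7.03 and 6.91. Preparation 1 was also smallest for Cited1, Eya1, Meox1, Osr1 and Itga8, but not for Crym or Gdnf, all named after their values were seen. The part of this weaker separation in the results for members was not tested. Podocyte, endothelial, and smooth muscle and pericyte markers were lower in all 18 tested members, erythroid markers in 3 of 3, and stromal markers in 5 of 6 with 1 higher. Of 5 tested neuronal and glial markers 3 were lower and 1 higher. Six2-low thus held RNA of many kidney cell types, and in such bulk fractions fewer cells of a type and less RNA per cell cannot be told apart. Total counts ran from 23535399 to 28466419 in Six2-high and from 23995694 to 29791421 in Six2-low. Rn45s, a precursor of ribosomal RNA, held 9.59% of the counts of Six2-high replicate 3 and 0.499 to 0.676% of those of the other libraries. With Rn45s and Lars2 left out, the member calls given next were the same in number. Six2-low replicate 1 also stood apart: erythroid markers summed to 5.74 to 18.7 CPM in Six2-high, and to 1760 CPM in this library and 136.9 and 139.4 CPM in the other Six2-low libraries. Immune markers summed to 323.6 CPM in it, against 152 and 158 CPM in the other Six2-low libraries, and endothelial markers to 936.8 CPM, against 568.5 and 569.4 CPM. With this library left out 5 members were higher and 8 lower, Nr4a3 then being tested and lower (adjusted p = 0.00856), and the part of these cells in the results was not tested.

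Of the 25 genes, 20 had enough counts to be tested, and 12 of these differed between the fractions: 5 were higher and 7 lower in Six2-high (edgeR quasi-likelihood test, Benjamini-Hochberg adjusted p under 0.05 over all 15347 genes tested). The share of all tested genes called was 50.1%, with 21.4% called higher and 28.7% called lower, and the share of tested members called was 60%. The median log2 fold change, Six2-high over Six2-low throughout, was -0.18 over the 20 tested members and 0.05 over all tested genes. Fractions did not overlap in CPM for 5 members that were above and 8 that were below in Six2-high, where the shares over all tested genes were 28% and 32%. With the preparation as a replicate block 5 members were higher and 8 lower, where 64.6% of all tested genes were called, 31.7% higher and 33% lower. Tested against a 2-fold change, 2 members were higher and 6 lower, beside 3.56% and 17.3% of all tested genes. As a passing gene may owe its pass to the fraction where it is high, these counts do not describe the 5 members below the filter.

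**Figure D1:**
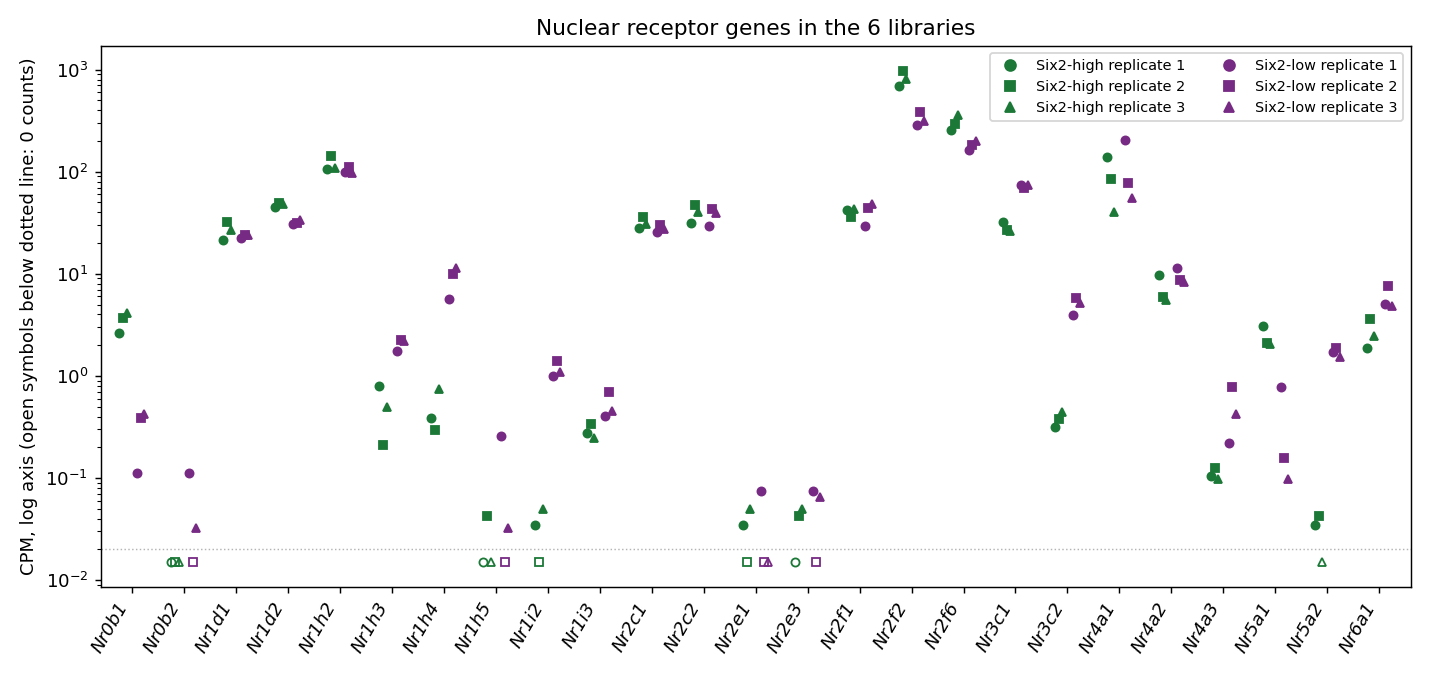
Level of each of the 25 genes in each library, in CPM on a log axis; green symbols are Six2-high and purple symbols Six2-low libraries, the symbol shape gives the replicate, and open symbols below the dotted line stand for libraries with 0 counts. Nr2f2 was the most highly counted member in every library, between 690.5 and 981 CPM in Six2-high and between 289.8 and 388 CPM in Six2-low.

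The genes higher in Six2-high fell into a pair of scarce receptors with large differences and 3 more highly counted receptors with smaller ones. The scarce pair was Nr0b1 and Nr5a1. Nr0b1 (DAX1), a receptor without the usual DNA-binding domain that represses other receptors, lies on chromosome X (86191764 to 86195947, plus strand, build mm10). Nr5a1 (steroidogenic factor), which directs adrenal and gonadal steroid synthesis and whose activity Nr0b1 restrains, lies on chromosome 2 (38692656 to 38714542, minus strand).

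Nr0b1 had 76, 87 and 85 counts in the Six2-high libraries and 3, 10 and 13 counts in the Six2-low libraries. As levels these were 2.64, 3.67 and 4.17 CPM in Six2-high and 0.111, 0.390 and 0.419 CPM in Six2-low. Every Six2-high library stood above every Six2-low one. The mean was 3.495 ± 0.781 CPM in Six2-high, against 0.307 ± 0.170 CPM in Six2-low (SD, n = 3 each), a log2 fold change of 3.48 (SE 0.44, edgeR adjusted p = 0.000249). Within preparations 1 to 3 the log2 difference, with a prior count of 2, was 3.86, 3.01 and 3.10.

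Nr5a1 had 88, 50 and 42 counts in Six2-high and 21, 4 and 3 counts in Six2-low, that is 3.06, 2.11 and 2.06 CPM in Six2-high and 0.777, 0.156 and 0.0968 CPM in Six2-low. The fractions did not overlap, and replicate 1 was the highest library of both fractions. The log2 fold change was 2.82 (SE 0.63, edgeR adjusted p = 0.00586), and by preparation the difference was 1.88, 3.23 and 3.62. Without Six2-low replicate 1 the log2 fold change was 4.19 and without both libraries of preparation 1 it was 3.98, while with preparation 2 left out the gene did not pass (log2 fold change 2.58, adjusted p = 0.0521; range over 16 alternatives 0.000112 to 0.0521).

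Genes of steroid synthesis did not follow this pair as a group. Of 8 listed genes only 3 had enough counts to be tested, with 1 higher and 1 lower in Six2-high, beside 21.4% and 28.7% of all tested genes. Star, which carries cholesterol into mitochondria, was at 7.06 ± 1.43 CPM in Six2-high, against 4.29 ± 0.722 CPM in Six2-low (SD, n = 3 each; log2 fold change 0.72, SE 0.23, adjusted p = 0.031). It passed in 8 of 16 alternatives, and the call was lost on omission of Six2-high replicate 1 or 2 (adjusted p = 0.0896 and 0.0685) or of Six2-low replicate 1 or 3 (0.0892 and 0.121). Star was also not called without preparation 1 (0.127), 2 (0.0914) or 3 (0.0983). Mc2r, the receptor for corticotropin, was lower, at 0.703 ± 0.266 CPM in Six2-high, against 3.52 ± 0.679 CPM in Six2-low (log2 fold change -2.34, SE 0.35, adjusted p = 0.000627), and Fdx1, an electron carrier of the steroid hydroxylases, had a log2 fold change of -0.43 (SE 0.17, adjusted p = 0.0709; adjusted p = 0.0113 with the replicate block). The enzyme genes under the filter, and Dbh, an adrenal marker, are named after their values were seen. Cyp11b1, Cyp21a1 and Hsd3b1 had 0 counts in the 3 Six2-high libraries and 1, 12 and 27 counts in the 3 Six2-low libraries together. Cyp17a1 had 1 count in Six2-high and 2 in Six2-low. Cyp11a1 had 2 counts in Six2-high and 34, 6 and 14 counts in Six2-low. Replicate 1 was also the highest Six2-low library for Nr5a1 (21, 4 and 3 counts) and Dbh (28, 0 and 0 counts). It was not for Star, Mc2r and Cyp21a1, and the part of adrenal cells was not tested. Markers of the adrenal cortex and medulla were 8 genes, with 1 higher and 1 lower of 2 tested. They summed to 6.43 to 8.76 CPM in Six2-high, against 8.32 to 10.0 CPM in Six2-low. Star held most of the Six2-high sums, at 5.45 to 8.17 CPM, against 3.65 to 5.07 CPM in Six2-low. Each other marker had a lower mean in Six2-high than in Six2-low, and all of these but Mc2r were under the count filter.

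The stretch upstream of Nr0b1 is shown because this gene had the largest positive log2 fold change of the members. It was read from RefSeq (GRCm38.p6, the mm10 build) at chrX:86191525-86191763, plus strand, and ends before the first exon base in GENCODE. Capitals mark a match to AGGTCA, the core element that many nuclear receptors bind, searched on both strands.
Nr0b1: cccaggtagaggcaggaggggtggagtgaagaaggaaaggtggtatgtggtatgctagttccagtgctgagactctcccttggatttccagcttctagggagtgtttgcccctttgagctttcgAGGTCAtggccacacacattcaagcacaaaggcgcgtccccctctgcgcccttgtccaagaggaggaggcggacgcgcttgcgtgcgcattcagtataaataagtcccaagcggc
The match begins 126 bases before the RefSeq start (base 86191775), which lies 11 bases downstream of the GENCODE start given above. Of the 25 members 23 had a promoter entry, with 27 windows of 250 bases before a RefSeq start. This element was found for 5 of the 23 members (Nr0b1, Nr1d2, Nr1h4, Nr5a2 and Nr6a1). It was in 5 of the 27 member windows, where 14% of 32851 windows of this length hold it. Of these 5 members, Nr0b1 and Nr1d2 were higher and the other 3 lower in Six2-high.

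The more highly counted receptors that rose were Nr2f2, Nr2f6 and Nr1d2. Nr2f2 (COUP-TFII), an orphan receptor of mesenchyme and venous endothelium, lies on chromosome 7 (70351944 to 70366735, minus strand). It was at 690.5, 981 and 807 CPM in Six2-high and 289.8, 388 and 315 CPM in Six2-low. No library of one fraction reached the range of the other. The mean was 826 ± 146 CPM in Six2-high, against 331 ± 51.0 CPM in Six2-low (SD, n = 3 each), a log2 fold change of 1.32 (SE 0.17, adjusted p = 0.000251), and the preparations gave 1.25, 1.34 and 1.36. Nr2f2 took 49.0 to 56.3% of all counts of the 25 members in Six2-high and 28.9 to 37.3% in Six2-low. Endothelial markers, a cell type in which Nr2f2 is known, summed to 3.46 to 5.95 CPM in Six2-high, against 568.5 to 937 CPM in Six2-low, and stromal markers to 188 to 279.9 CPM in Six2-high, against 1298 to 1685 CPM in Six2-low. Of 6 stromal markers 5 were lower, and Foxd1, named after its value was seen, was higher. Foxd1 was at 106.7 ± 52.1 CPM in Six2-high, against 42.5 ± 20.8 CPM in Six2-low (SD, n = 3 each). Its fractions overlapped (log2 fold change 1.325, SE 0.475, edgeR adjusted p = 0.0459), and the preparations gave 1.40, 1.22 and 1.40. The part of these cell types in the difference of Nr2f2 was not tested.

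Its relative Nr2f6 (EAR2), an orphan receptor studied mostly as a repressor, lies on chromosome 8 (71374123 to 71381960, minus strand). Levels were 255, 291 and 356 CPM in Six2-high and 164, 183 and 202 CPM in Six2-low, again without overlap (log2 fold change 0.72, SE 0.15, adjusted p = 0.00401). Nr2f6 shares 54.4% of its exon positions with Ocel1 on the opposite strand, which had 879 counts in all, against 36855 for Nr2f6. Without the strand setting, reads over the shared positions cannot be told apart, so the value of Nr2f6 is uncertain. The third COUP factor, Nr2f1 (chromosome 13, 78188973 to 78199757), did not follow: it was at 42.1, 36.2 and 42.8 CPM in Six2-high and 29.5, 44.2 and 48.0 CPM in Six2-low, and its difference changed sign between preparations, at 0.51, -0.29 and -0.16. Its log2 fold change was -0.01 (SE 0.18, adjusted p = 0.976).

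Nr1d2 (REV-ERB beta), a heme-binding repressor of the circadian clock, lies on chromosome 14 (18204054 to 18239127, minus strand). It was at 44.7, 49.8 and 48.6 CPM in Six2-high and 31.1, 31.4 and 33.4 CPM in Six2-low, a small difference with little spread (log2 fold change 0.58, SE 0.11, adjusted p = 0.00208). Nr1d1 (REV-ERB alpha), its close paralog on chromosome 11 (98767932 to 98775333), overlapped, at 21.6, 32.4 and 27.1 CPM in Six2-high and 22.2, 24.0 and 24.0 CPM in Six2-low (log2 fold change 0.21, SE 0.16, adjusted p = 0.323). Whether the 2 paralogs differ in response was not tested. Nr1d1 shares 8.55% of its exon positions with Thra on the opposite strand, which had 14957 counts against 3902, and its reads there cannot be told apart without strand.

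Most clock genes beside the REV-ERB receptors were not called (9 of 14 tested), with 2 higher and 3 lower (median log2 fold change -0.10). With the replicate block 4 were higher and 6 lower. Of all tested genes 50.1% were called, or 64.6% with the block. Npas2, a partner of the clock activator, had a log2 fold change of -2.77 (SE 0.27, adjusted p = 4.72e-05), and Bhlhe40, a clock repressor, one of -1.24 (SE 0.13, adjusted p = 7.08e-05). Cry1, another repressor, was higher by 0.44 (SE 0.11, adjusted p = 0.0103), but omission of Six2-low replicate 2 (adjusted p = 0.0557), of preparation 2 (0.0549) or of preparation 3 (0.135) ended the call.

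**Figure D2:**
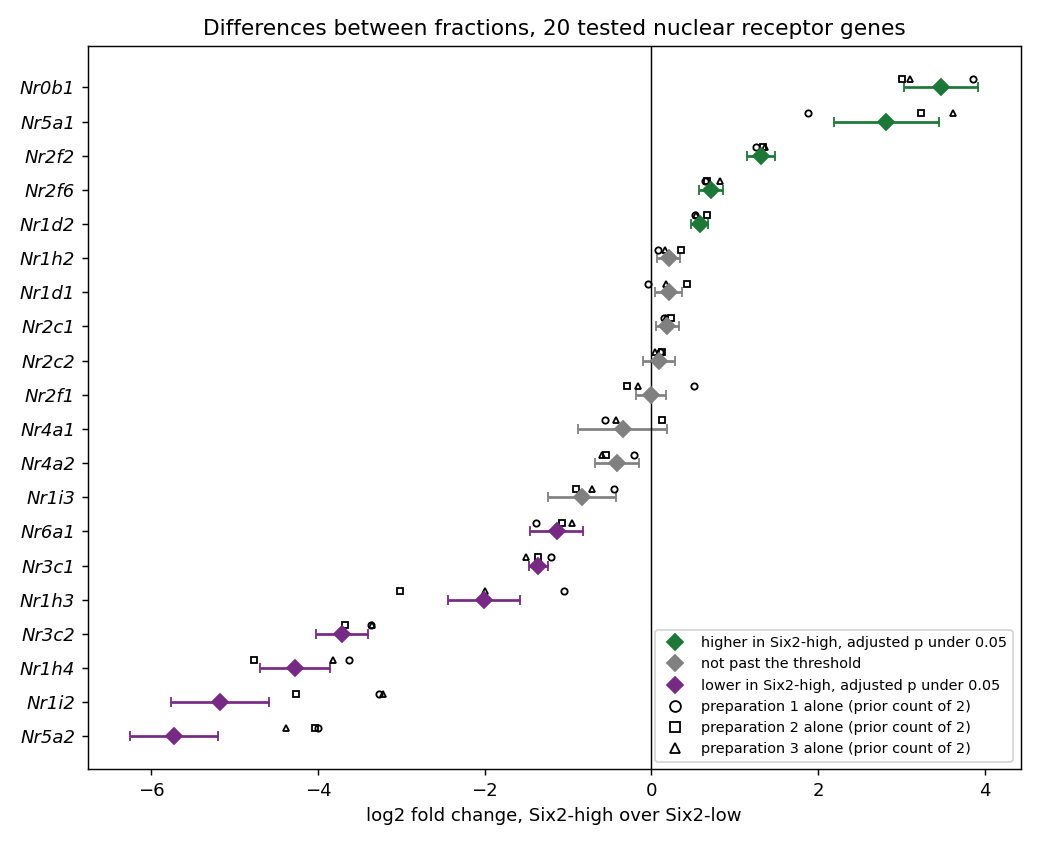
Log2 fold change (horizontal axis, Six2-high over Six2-low) of the 20 tested genes, as the fitted value with its SE (diamonds; green higher, purple lower, grey not past the threshold) and as the difference within each preparation with a prior count of 2 (open symbols). The fitted values run from -5.72 for Nr5a2 to 3.48 for Nr0b1, and the 3 preparations lie on the same side of 0 for all 12 genes called.

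The most negative log2 fold changes among the members were those of Nr5a2, Nr1i2 and Nr1h4, all scarce in Six2-high. Nr5a2 (liver receptor homolog, a regulator of bile acid and lipid genes in liver; chromosome 1, 136842571 to 136960448, minus strand) had 1, 1 and 0 counts in Six2-high and 46, 48 and 47 counts in Six2-low. The ratio of Six2-high over Six2-low was 0.0163 with an exact (Clopper-Pearson) 95% interval of 0.00195 to 0.0599, which covers counting error only. Nr1i2 (PXR, the xenobiotic sensor of liver and gut; chromosome 16, 38248323 to 38294824, minus strand) had 1, 0 and 1 counts in Six2-high and 27, 36 and 34 counts in Six2-low, a ratio of 0.0237 (0.00283 to 0.0879). Nearly all counts of both genes were in Six2-low, and both passed the test (adjusted p = 3.7e-05 for Nr5a2 and 0.000123 for Nr1i2). The fitted log2 fold change of Nr1i2 was -5.18, and -4.53 without both libraries of preparation 2.

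Nr1h4 (FXR, the bile acid receptor; chromosome 10, 89454234 to 89533585, minus strand) was at 0.382, 0.295 and 0.737 CPM in Six2-high and 5.63, 10.1 and 11.4 CPM in Six2-low. The fractions lay far apart, with a log2 fold change of -4.28 (SE 0.42, adjusted p = 5.1e-05). Of 11 listed targets of FXR, PXR and CAR 7 were tested, and 6 were lower and 0 higher by edgeR in Six2-high (median log2 fold change -3.09). The replicate block gave the same numbers. Of all tested genes 28.7% were lower and 21.4% higher, and a tested target may owe its pass of the filter to Six2-low. The targets under the filter, named after their values were seen, were Cyp3a11, Cyp2b10, Cyp2c29 and Abcb11. They had 0, 3, 0 and 4 counts in Six2-high and 5, 1, 1 and 7 counts in Six2-low. Whether the targets follow the receptors was not tested. Abcc2, an export pump of organic anions, had a log2 fold change of -3.71 (SE 0.39, adjusted p = 7.92e-05) and of -4.32 without Six2-high replicate 3. Slc51b, a subunit of the basolateral bile acid transporter, had one of -3.60 (SE 0.44, adjusted p = 0.000187), and the export pump Abcc3 one of -1.82 (SE 0.22, adjusted p = 0.00019).

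Proximal tubule markers were lower in Six2-high too, but so were most markers of other tubule segments, podocytes and endothelium. The proximal tubule is thus not singled out here. All 8 proximal tubule markers were lower, and they summed to 81.4 to 143 CPM in Six2-high, against 1273 to 1652 CPM in Six2-low. The most abundant, the endocytic receptor Lrp2, was at 26.0 ± 5.78 CPM in Six2-high, against 401.5 ± 88.8 CPM in Six2-low (SD, n = 3 each). Their part in the difference of Nr1h4, Nr1i2 and Nr5a2 was not tested.

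The other xenobiotic receptor, Nr1i3 (CAR; chromosome 1, 171213970 to 171220701), was scarce in both fractions, at 0.278, 0.337 and 0.246 CPM in Six2-high and 0.407, 0.702 and 0.452 CPM in Six2-low. The ranges did not overlap but the gene did not pass (log2 fold change -0.84, SE 0.41, adjusted p = 0.119). It shares 74.9% of its exon positions with Tomm40l on the opposite strand, which had 4472 counts against 64, so its value is uncertain.

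Both corticosteroid receptors fell. Nr3c1, the glucocorticoid receptor (chromosome 18, 39410545 to 39519421, minus strand), was at 31.9, 27.0 and 26.1 CPM in Six2-high and 74.0, 69.4 and 74.2 CPM in Six2-low. Replicates of each fraction lay close together and the fractions stood well apart (log2 fold change -1.36, SE 0.12, adjusted p = 2.6e-05). Nr3c2, the mineralocorticoid receptor through which aldosterone acts on the distal nephron (chromosome 8, 76899442 to 77245012, plus strand), was at 0.313, 0.380 and 0.442 CPM in Six2-high and 3.92, 5.77 and 5.195 CPM in Six2-low. No library of the fractions overlapped, and the log2 fold change was -3.71 (SE 0.31, adjusted p = 2e-05). The difference between the receptors' fold changes was not tested. Ureteric bud and collecting duct markers, 8 of 8 lower, summed to 20.9 to 27.1 CPM in Six2-high, against 711.9 to 859.5 CPM in Six2-low, and loop of Henle and distal tubule markers, 7 of 8 lower, to 2.95 to 9.32 CPM in Six2-high, against 571 to 721 CPM in Six2-low. Their part in the difference of Nr3c2 was not tested.

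Of 13 tested corticosteroid response genes 7 were lower, 1 higher and 5 not called (median log2 fold change -1.67). With the replicate block 9 were lower and 1 higher. Shares of all tested genes were 28.7% lower and 21.4% higher, or 33% and 31.7% with the block. Whether the response genes follow the receptors was not tested. Sgk1, the kinase induced by aldosterone and glucocorticoids, was at 17.9, 14.7 and 15.8 CPM in Six2-high and 116, 112 and 116 CPM in Six2-low (log2 fold change -2.83, SE 0.12, adjusted p = 7.6e-07). The metallothioneins Mt1 and Mt2 had log2 fold changes of -2.64 (SE 0.14, adjusted p = 2.46e-06) and -2.25 (SE 0.14, adjusted p = 5.16e-06). Fkbp5 and Tsc22d3, 2 standard glucocorticoid targets named here after their values were seen, had log2 fold changes of -0.09 each (adjusted p = 0.585 and 0.619). The higher member, also named after its value was seen, was Hsd11b2, which inactivates glucocorticoids, at 96.3, 124.5 and 121 CPM in Six2-high and 59.99, 46.8 and 43.9 CPM in Six2-low (log2 fold change 1.18, SE 0.16, adjusted p = 0.000313). The enzyme was higher, and Nr3c1 and Nr3c2 lower, in Six2-high.

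Of the oxysterol receptors 1 was called. Nr1h2 (LXR beta; chromosome 7, 44549616 to 44553951), the widely expressed form, overlapped between fractions at 106, 141 and 109 CPM in Six2-high and 100.3, 111 and 97.1 CPM in Six2-low (log2 fold change 0.21, SE 0.14, adjusted p = 0.234). Nr1h3 (LXR alpha; chromosome 2, 91184061 to 91202834, minus strand), known from liver and macrophages, was at 0.800, 0.211 and 0.491 CPM in Six2-high and 1.74, 2.26 and 2.19 CPM in Six2-low. It was lower in each preparation, by values that varied (-1.05, -3.02 and -2), with a log2 fold change of -2.01 (SE 0.43, adjusted p = 0.0049). With preparation 3 left out it did not pass (adjusted p = 0.0719; range over 16 alternatives 0.000406 to 0.0719), and with preparation 1 left out the log2 fold change was -2.72. Immune markers, 5 of 6 lower, summed to 7.72 to 22.9 CPM in Six2-high, against 152 to 324 CPM in Six2-low. Among them the macrophage receptor Csf1r was at 0.653 ± 0.121 CPM in Six2-high, against 50.4 ± 6.17 CPM in Six2-low, and the neutrophil granule gene Ngp at 0.103 ± 0.0599 CPM in Six2-high, against 59.3 ± 62.2 CPM in Six2-low (SD, n = 3 each). Their part in the difference of Nr1h3 was not tested.

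Of 11 tested LXR target genes 2 were higher, 3 lower and 6 not called, or 4 higher and 4 lower with the replicate block (median log2 fold change -0.14). Of all tested genes 50.1% were called, or 64.6% with the block. Apoe, a lipid carrier also made by macrophages, had a log2 fold change of -2.78 (SE 0.11, adjusted p = 6.73e-07). Mylip, a ubiquitin ligase for the LDL receptor, was higher at 76.4, 103 and 85.3 CPM in Six2-high and 31.3, 36.6 and 35.9 CPM in Six2-low (log2 fold change 1.35, SE 0.14, adjusted p = 6.94e-05). Lpcat3, which remodels phospholipids, had one of -0.70 (SE 0.13, adjusted p = 0.00208).

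Nr6a1 (germ cell nuclear factor, an orphan repressor of pluripotency genes; chromosome 2, 38723370 to 38927688, minus strand) was at 1.88, 3.63 and 2.46 CPM in Six2-high and 5.03, 7.68 and 4.81 CPM in Six2-low. The fractions did not overlap and the preparations gave -1.39, -1.07 and -0.95 (log2 fold change -1.14, SE 0.31, adjusted p = 0.0156). The call was lost on omission of Six2-high replicate 3 (adjusted p = 0.054), Six2-low replicate 2 (0.0683) or preparation 3 (0.0937), in a range over 16 alternatives of 0.00209 to 0.533, the last against a 2-fold change. Nr6a1 and Nr5a1 are the closest members in the genome, on the same strand with 8827 bases between them, and they were called in opposite directions.

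The NR4A receptors are immediate early genes that need no known hormone, and the 2 that were tested were not called. Nr4a1 (chromosome 15, 101254269 to 101274795) was at 139, 84.4 and 40.8 CPM in Six2-high and 204, 77.3 and 54.8 CPM in Six2-low. In both fractions replicate 1 was highest and replicate 3 lowest, by 3.40 times in Six2-high and 3.72 times in Six2-low, and the log2 fold change was -0.35 (SE 0.54, adjusted p = 0.614), or 0.37 with Six2-low replicate 1 left out. Nr4a2 (chromosome 2, 57106830 to 57124003) had the same order, at 9.84, 5.86 and 5.50 CPM in Six2-high and 11.4, 8.62 and 8.32 CPM in Six2-low. Its log2 fold change of -0.41 (SE 0.26) gave adjusted p = 0.223, but with the replicate block the gene was lower (log2 fold change -0.45, adjusted p = 0.0317), and omission of Six2-high replicate 1 (adjusted p = 0.0171) or of preparation 1 (0.0206) gave the same call, in a range over 16 alternatives of 0.0171 to 1. Nr4a3 (chromosome 4, 48045153 to 48086447), with 3, 3 and 2 counts in Six2-high and 6, 20 and 13 counts in Six2-low, was under the count filter. Its fractions did not overlap, and in it replicate 1 was not the highest library.

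Other immediate early genes, listed beside the NR4A receptors, also had replicate 1 on top. It was the highest library of both fractions in 11 of 11 listed genes, where 23.4% of all tested genes had that order. Of the 20 tested members replicate 1 was the highest of both fractions in 3, and the lowest of both in 8, where 19% of all tested genes had it lowest. Between fractions edgeR called none of the early genes (0 of 11), and Ier2 was the 1 gene at an unadjusted p under 0.05. With the replicate block 6 were higher and 2 lower in Six2-high, beside 31.7% and 33% of all tested genes. The 3 genes with the smallest p without the block were Ier2 at 0.73 (SE 0.28, adjusted p = 0.0623 without and 0.000107 with the block), Atf3 at -1.78 (SE 0.87, adjusted p = 0.122 and 8.4e-05) and Egr1 at 0.55 (SE 0.37, adjusted p = 0.246 and 0.00195). The value of Atf3 was -3.34 with Six2-high replicate 1 left out (adjusted p = 0.00767) and -0.66 with Six2-low replicate 1 left out (adjusted p = 0.518). Ier2 passed by DESeq2 (adjusted p = 0.0208) and in 6 of 16 alternatives.

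**Figure D3:**
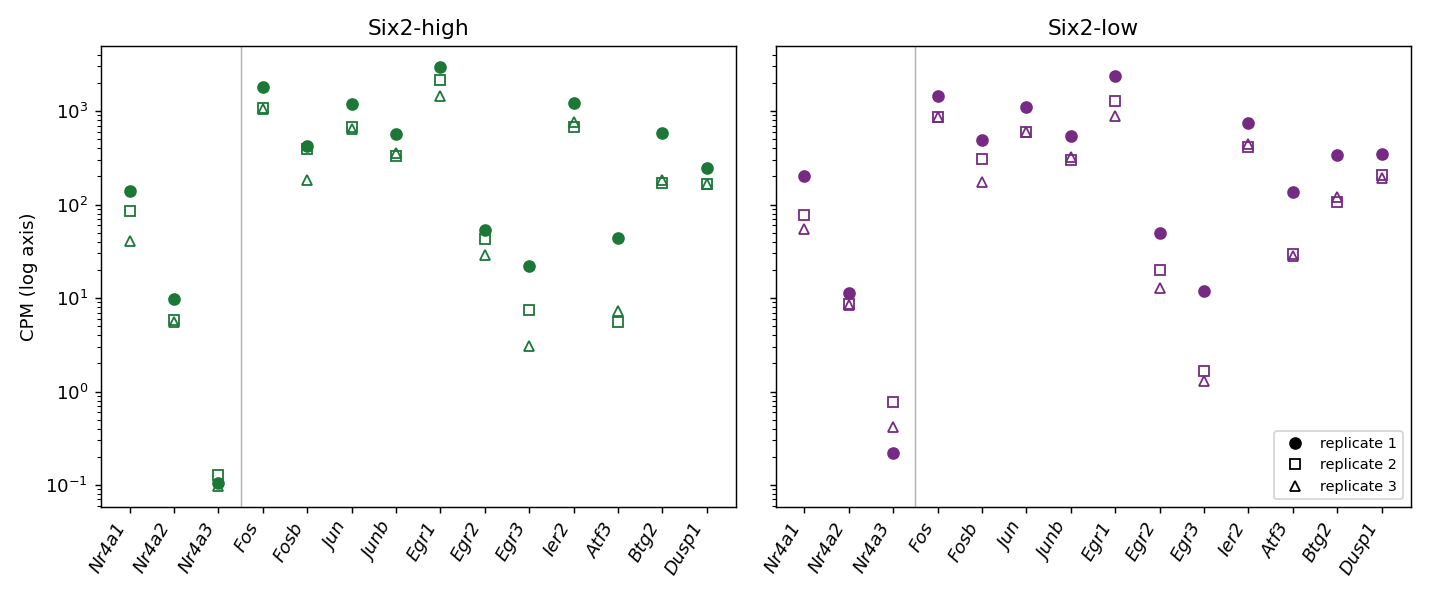
CPM on a log axis of the 3 NR4A genes (left of the grey line in each panel) and of 11 immediate early genes in the Six2-high (left panel, green) and Six2-low (right panel, purple) libraries, with replicate 1 filled. Replicate 1 is the highest symbol for Nr4a1, Nr4a2 and all 11 early genes in both panels, but not for Nr4a3, which has 8 counts in Six2-high and 39 in Six2-low.

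Windows before the RefSeq starts of the NR4A genes are shown because Nr4a1 and Nr4a2 followed the same order of libraries. They come from RefSeq (GRCm38.p6), hold no base of a GENCODE exon of the gene, and lie at chr15:101266596-101266845 (plus strand), chr2:57124004-57124253 (minus strand) and chr4:48045055-48045152 (plus strand). The RefSeq start of Nr4a1 is an internal one, 12577 bases downstream of the first base of the GENCODE gene, so its window lies within that gene, between exons. The start of Nr4a3 lies 152 bases downstream of the GENCODE one, and that of Nr4a2 is the same in both. Capitals mark the letters TGACG, a core part of the cAMP response element, or CGTCA on the other strand.
Nr4a1: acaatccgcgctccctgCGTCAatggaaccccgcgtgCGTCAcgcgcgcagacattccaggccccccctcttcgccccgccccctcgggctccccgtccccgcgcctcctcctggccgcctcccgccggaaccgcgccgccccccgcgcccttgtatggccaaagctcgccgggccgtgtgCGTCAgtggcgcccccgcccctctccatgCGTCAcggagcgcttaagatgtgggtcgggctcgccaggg
Nr4a2: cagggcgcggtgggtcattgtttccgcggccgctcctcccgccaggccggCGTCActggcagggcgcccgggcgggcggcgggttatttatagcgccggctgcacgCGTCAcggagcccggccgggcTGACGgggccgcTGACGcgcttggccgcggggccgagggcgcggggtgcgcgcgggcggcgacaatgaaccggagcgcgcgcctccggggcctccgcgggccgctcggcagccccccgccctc
Nr4a3: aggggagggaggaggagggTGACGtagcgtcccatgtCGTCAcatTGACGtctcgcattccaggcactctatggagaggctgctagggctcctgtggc
Each of the 3 genes had 4 matches in the 250 bases before its RefSeq start, of which 3 are in the shorter stretch printed for Nr4a3. At least 1 match was found for 7 of the 23 members with an entry (these 3, Nr2c1, Nr2c2, Nr2e1 and Nr6a1). A match was in 7 of the 27 member windows and in 17.8% of all windows. The E-box CACGTG, which clock activators bind, was in 2 of the 27 member windows (Nr0b2 and Nr1i3) and in 6.02% of all windows.

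The orphan pair Nr2c1 and Nr2c2 (testicular receptors) was near level. Nr2c1 (chromosome 10, 94148023 to 94197211) ran from 28.2 to 35.6 CPM in Six2-high and from 25.4 to 30.3 CPM in Six2-low (log2 fold change 0.19, SE 0.14, adjusted p = 0.281). Nr2c2 (chromosome 6, 92091390 to 92174294) ran from 31.8 to 47.1 CPM in Six2-high and from 29.6 to 43.0 CPM in Six2-low (log2 fold change 0.09, SE 0.19, adjusted p = 0.71). Nr2c2 shares 30.7% of its exon positions with Mrps25 on the opposite strand, which had 3991 counts against 5993, so its value is uncertain. In both genes the fractions overlapped, and the difference was positive in the 3 preparations.

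The remaining members were at or near 0 in both fractions. Nr0b2 (small heterodimer partner, a target of FXR in liver) had 0 counts in Six2-high and 4 in Six2-low, where 3 counts over the Six2-high libraries would be 0.0412 CPM. Nr1h5 had 1 count in Six2-high and 8 in Six2-low, of which 7 were in replicate 1. Nr2e1, a receptor of neural stem cells, had 2 counts in each fraction, and Nr2e3, of photoreceptors, had 2 in Six2-high and 4 in Six2-low. No difference was detectable at this depth for these 4 genes.

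Levels of different members can be compared only per length, here as CPM per kilobase of annotated exon. On that scale the order in Six2-high began with Nr2f6 at 100.7 ± 17.2 and Nr2f2 at 95.8 ± 16.95, which did not differ beyond their spread, followed by Nr1h2 at 35.4 ± 5.87 and Nr4a1 at 25.1 ± 13.97 (SD, n = 3 each). In Six2-low it began with Nr2f6 at 61.4 ± 6.38 and Nr2f2 at 38.4 ± 5.91, and then Nr4a1 at 31.9 ± 22.9 and Nr1h2 at 30.6 ± 2.15. A middle tier of Nr1d1, Nr1d2, Nr2f1 and Nr2c1 lay between 6.86 and 8.82 in Six2-high and between 5.90 and 7.97 in Six2-low. Nr3c1 lay below that tier in Six2-high, at 3.69 ± 0.410, and above it in Six2-low, at 9.44 ± 0.352. Nr0b1 was at 1.93 ± 0.432 in Six2-high, near Nr4a2 at 1.74 ± 0.593, and at 0.170 ± 0.0941 in Six2-low. The exon lengths are those of GENCODE M21, not necessarily those the counts were made with. As Nr2f6 shares 54.4% of its exon positions with an antisense gene, its place in this order is uncertain.

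**Figure D4:**
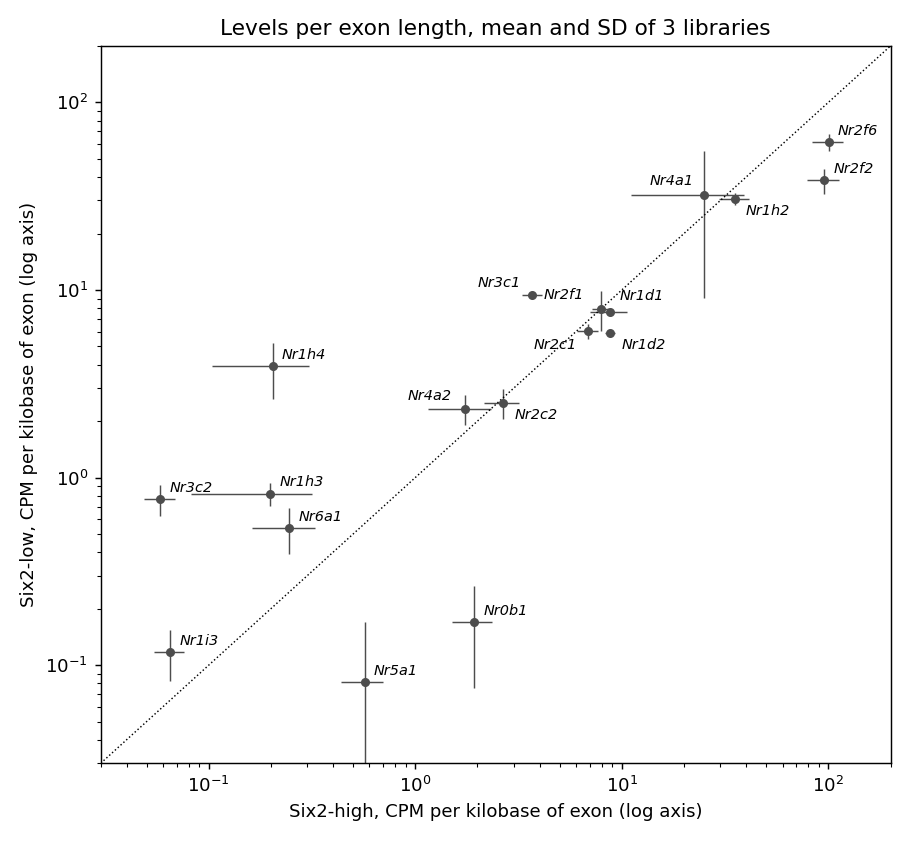
Mean level per exon length of members above 0.05 in both fractions, in CPM per kilobase on log axes, Six2-high on the horizontal and Six2-low on the vertical axis, with the SD of 3 libraries as bars and a dotted line of equal levels. Nr0b1 and Nr5a1 lie below the line, Nr1h4, Nr3c2 and Nr1h3 above it, and most abundant members near it; the lower bar of Nr5a1 runs off the axis because its SD exceeds its mean in Six2-low.

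Nuclear receptors with other symbols gave a different balance. Of 24 such genes 23 were tested, and 2 were higher and 16 lower in Six2-high (median log2 fold change -1.53), the same numbers with the replicate block. Over the whole family of 49 genes 43 were tested, with 7 higher and 23 lower. Of all tested genes 21.4% were called higher and 28.7% lower, or 31.7% and 33% with the block. A tested receptor may owe its pass of the filter to the fraction where it is high. Hnf4a, a master regulator of the proximal tubule, was at 5.32, 4.39 and 8.40 CPM in Six2-high and 176, 233 and 238 CPM in Six2-low (log2 fold change -5.17, SE 0.26, adjusted p = 1.83e-06). Esrrg, an orphan receptor of oxidative metabolism, had a log2 fold change of -3.05 (SE 0.19, adjusted p = 4.55e-06) and the retinoic acid receptor Rarg one of -2.31 (SE 0.15, adjusted p = 6e-06). The 2 higher genes, named after their values were seen, were Rora at 7.37, 12.4 and 8.74 CPM in Six2-high and 2.96, 6.67 and 4.55 CPM in Six2-low (log2 fold change 1.01, SE 0.32, adjusted p = 0.0297) and Rxrb at 0.33 (SE 0.10, adjusted p = 0.0212). Their adjusted p with the replicate block was 0.00146 and 0.00544. The call of Rora was lost on omission of Six2-high replicate 2 (adjusted p = 0.0861) or 3 (0.0668) or Six2-low replicate 1 (0.0888) or 3 (0.0862). It was also lost without preparation 3 (0.158). The call of Rxrb was lost on omission of Six2-high replicate 3 (0.0574) or any Six2-low library (0.0625 to 0.0943). It was also lost without preparation 1 (0.0516), 2 (0.0694) or 3 (0.18), and neither gene passed against a 2-fold change. With either Six2-high replicate 3, Six2-low replicate 1, Six2-low replicate 3 or preparation 3 left out, 0 of the other receptors were higher. No test compared the NR-symbol genes with the others.

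**Figure D5:**
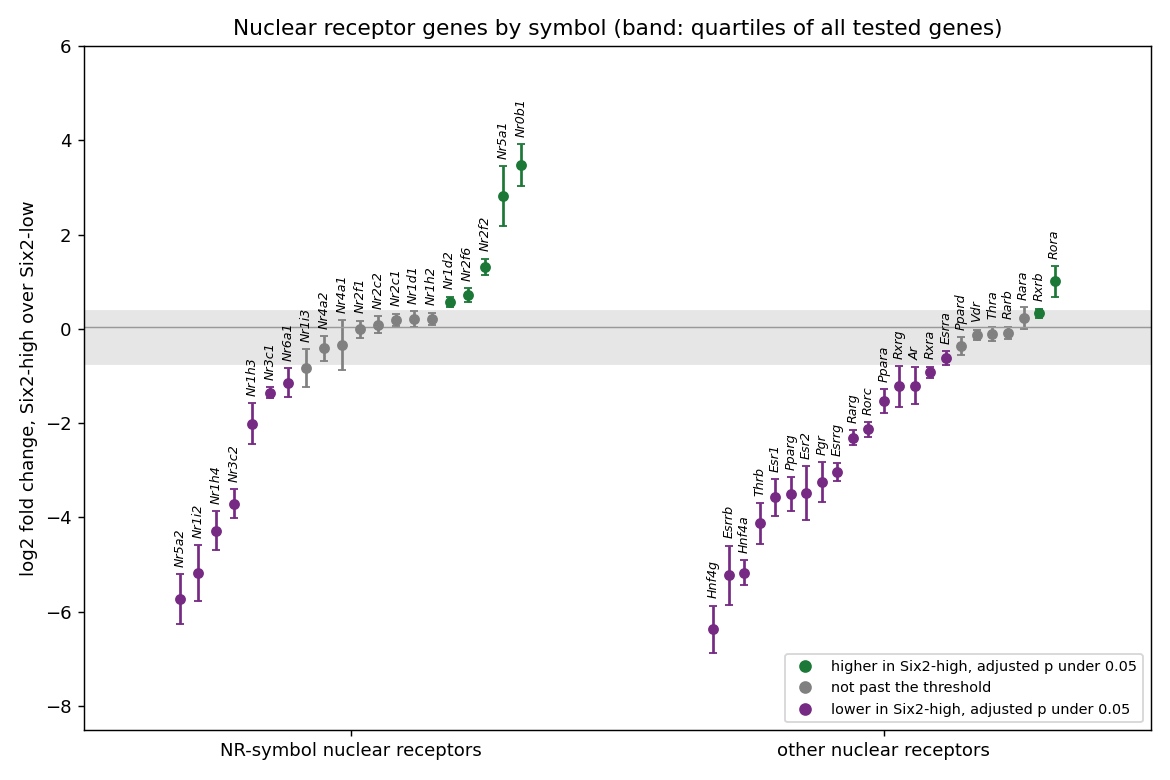
Log2 fold change with SE, Six2-high over Six2-low, of the 20 tested NR-symbol genes (left) and the 23 tested nuclear receptor genes with other symbols (right), sorted by value; green is higher, purple lower and grey not past the threshold, and the band spans the quartiles of all tested genes, from -0.74 to 0.39. The left set spans both sides of the band, with 5 genes higher and 7 lower, and the right set lies mostly below it, with 2 higher and 16 lower.

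Most coregulators of nuclear receptors were not called. Of 16 tested coactivators and corepressors 2 were higher, 2 lower and 12 not called, or 5 higher and 3 lower with the replicate block (median log2 fold change 0.14). Of all tested genes 50.1% were called, or 64.6% with the block. Ppargc1a, a coactivator of mitochondrial genes, was at 0.973, 1.90 and 2.36 CPM in Six2-high and 30.7, 63.7 and 54.1 CPM in Six2-low (log2 fold change -4.85, SE 0.38, adjusted p = 1.5e-05). Nrip1, a corepressor, had a log2 fold change of -0.98 (SE 0.18, adjusted p = 0.00195). Ncoa1, a steroid receptor coactivator, was higher by 0.69 (SE 0.18, adjusted p = 0.0139), a call lost on omission of Six2-low replicate 1 (adjusted p = 0.0645) or preparation 3 (0.124). Tbl1xr1, a subunit of the NCoR corepressor complex named after its value was seen, was the other gene called higher, by 0.35 (SE 0.11, adjusted p = 0.0273).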

How the data were processed

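Per the labels, cells of fetal kidneys were sorted by flow cytometry into 2 fractions and their poly(A) RNA was sequenced. Tools listed in the submitters' processing notes, with no role or order, are HTSeq 0.6.1p1, DESeq2, TopHat2 2.1.0, SAMtools and TopHat, and the listed build is mm10. For the annotation and the strand setting, the sources used here give nothing. The deposited table holds raw counts per gene symbol, unnormalised, with no row lacking a gene name; the authors' scaled version of it was not used.

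From these counts, R 4.3.3 with edgeR 4.0.16 was used for filterByExpr, TMM scaling, and the quasi-likelihood F test of fraction (two-sided; no block), p-values being Benjamini-Hochberg adjusted over all genes tested. SE is the log2 fold change over the square root of F. CPM uses TMM-scaled totals. Alternatives were the replicate block, RLE scaling, DESeq2 1.42.0, other count filters, Rn45s and Lars2 left out, a 2-fold null, and libraries or preparations left out. The preparation tags in the titles pair the libraries, and deviations from fraction means correlated at 0.37, 0.42 and 0.33 within preparations. Replicates differed beyond sampling noise (chi-square per degree of freedom 16.1 to 200). The test was tried on simulated counts, but the outcome is not reported here and nothing is drawn from it.

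Members were chosen by symbol. The companion and marker lists come from textbook knowledge, and members and lists were chosen with earlier results of these data known. Text names all members, the 3 smallest p of each companion list, up to 2 of the most abundant markers of lists set beside a member (1 such marker is not reported here), and genes said to be named after their values were seen. Coordinates and exon sharing are from GENCODE M21 on mm10.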

Additional observations from a re-analysis of the deposited data

How the results depend on the processing

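Over all genes, 3285 were higher and 4401 lower in Six2-high. Against a 2-fold change these were 546 and 2662, and the members higher numbered 2 in place of 5. Leaving out single libraries or both libraries of a preparation gave 1329 to 3183 genes higher and 3300 to 4579 lower, the lowest without both libraries of preparation 3, and 2160 were higher with Six2-low replicate 2 left out and 2086 with preparation 2 left out. In these settings 4 to 5 members were higher and 5 to 9 lower. With the replicate block 5 members were higher and 8 lower, Nr4a2 being the change among members, and 4860 and 5059 genes overall. Of 319 alternative values of the tested members 307 kept their direction, where called, and side of the threshold, 9 lost and 3 gained a call, and 0 called values turned direction. The causes were not tested. Nr4a3, under the filter, had a log2 fold change of -2.04 without a count filter (adjusted p = 0.0317) and of -2.12 by DESeq2 (adjusted p = 0.0551). Depth limits Nr0b2, Nr1h5, Nr2e1 and Nr2e3, with at most 9 counts each over 6 libraries.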

Other observations

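LXR target genes, looked at again after their values were seen, had an order of preparations opposite to that of the early response genes. Of 11 listed genes replicate 1 was the lowest library in 10 for Six2-high, in 9 for Six2-low and in 9 for both, where 19% of all tested genes had that order in both fractions. Abca1, a cholesterol exporter, was at 13.4, 79.0 and 63.8 CPM in Six2-high and 32.3, 56.4 and 55.5 CPM in Six2-low. Srebf1, a regulator of lipid synthesis, was at 98.8, 310 and 269.5 CPM in Six2-high and 96.1, 184 and 169.5 CPM in Six2-low. Scd2, a fatty acid desaturase gene, was at 764, 1602 and 1560 CPM in Six2-high and 491, 1187 and 1194 CPM in Six2-low. The receptors themselves differed in this: Nr1h2 had no such order in Six2-low, and Nr1h3 was lowest in replicate 1 in Six2-low only. Replicate 1 is the only preparation with the tag read as the first date, so date and preparation cannot be told apart.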
